A study of Homo sapiens with 12 samples.

Results

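The Hippo set described here holds 10 genes of the Hippo pathway: WWC1, YAP1, WWTR1, LATS1, LATS2, TEAD1, CCN1, CCN2, AMOTL2 and ANKRD1. The set was chosen by measured values, namely the hypoxia minus normoxia difference averaged over the 3 lines, in which WWC1 had already been called lower. The other 9 members are its pathway partners and canonical YAP targets, listed with those results in view. The 10 members are among 60656 gene IDs in the count table, and all 10 passed the filter on low counts that left 19636 genes for testing. RNA was sequenced from A2058, A375 and SKMEL-5, which are 3 established human cell lines labelled as metastatic melanoma. Each line was grown in hypoxia (1% oxygen) and, as the reference, in normoxia (atmospheric oxygen). Each of the 6 groups so formed has 2 libraries, called biological duplicates in the design text, which makes 12 in all. The labels give no time in low oxygen, and RNA was measured in bulk, so that fewer cells of a kind and less RNA per cell cannot be told apart.

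The Hippo pathway is a kinase cascade that restrains growth in response to cell density, cell shape and matrix stiffness. The kinases MST1 and MST2 activate the kinases LATS1 and LATS2, which phosphorylate the co-activators YAP (gene YAP1) and TAZ (gene WWTR1) and keep them out of the nucleus. When the kinases are quiet, YAP and TAZ enter the nucleus, bind TEAD factors and switch on genes such as CCN1, CCN2, AMOTL2 and ANKRD1. WWC1, also called KIBRA, is an upstream scaffold that promotes LATS activation.

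TEAD factors bind DNA at sites that contain GGAATG, so the promoters of the members were searched for these letters on both strands (CATTCC when the site lies on the other strand). RefSeq promoter windows on GRCh38.p14, with 250 bases before and 50 after a gene's start, were found for 8 of the 10 members, 11 windows in all. The members without one were CCN1 and TEAD1. The letters were present in 5 of the 11 windows, 1 each of YAP1, LATS2, CCN2, AMOTL2 and ANKRD1, against 14.0% of all 35116 windows of the same length. AMOTL2 had 2 windows, and the other one held no match. Counting from the gene start, the first base of the 3 matches in CCN2 lay at -169, -104 and -95, and that of the 2 matches in ANKRD1 at -220 and -128. AMOTL2 had 1 match on the other strand at -69, YAP1 had 1 match at -162, and LATS2 had 1 match that began at base 10 of the transcript. The windows of WWC1, WWTR1 and LATS1 held none. A match in a window is a description of its letters, and no binding was measured here. The 250 bases before the RefSeq start are printed for the 4 members with a match there and for WWC1, the scaffold around which the set was built. They run 5′ to 3′ in the direction of transcription, with the TEAD letters in capitals.
CCN2, chr6:131951373-131951622, minus strand: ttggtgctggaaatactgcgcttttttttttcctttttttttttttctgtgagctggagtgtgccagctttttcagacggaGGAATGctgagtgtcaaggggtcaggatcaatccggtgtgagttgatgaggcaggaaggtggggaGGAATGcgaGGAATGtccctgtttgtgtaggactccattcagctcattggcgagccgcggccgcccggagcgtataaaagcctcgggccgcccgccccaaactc
ANKRD1, chr10:90921088-90921337, minus strand: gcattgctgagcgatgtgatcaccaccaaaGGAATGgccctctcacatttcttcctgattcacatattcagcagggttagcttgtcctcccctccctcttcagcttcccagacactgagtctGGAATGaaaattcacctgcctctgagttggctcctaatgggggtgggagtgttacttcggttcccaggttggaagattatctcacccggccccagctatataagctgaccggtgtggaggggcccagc
AMOTL2, chr3:134374448-134374697, minus strand: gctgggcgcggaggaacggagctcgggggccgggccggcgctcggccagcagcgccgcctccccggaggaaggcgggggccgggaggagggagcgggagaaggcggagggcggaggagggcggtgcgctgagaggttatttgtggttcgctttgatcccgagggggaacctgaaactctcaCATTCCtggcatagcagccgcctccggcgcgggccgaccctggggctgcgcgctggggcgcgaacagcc
YAP1, chr11:102110197-102110446, plus strand: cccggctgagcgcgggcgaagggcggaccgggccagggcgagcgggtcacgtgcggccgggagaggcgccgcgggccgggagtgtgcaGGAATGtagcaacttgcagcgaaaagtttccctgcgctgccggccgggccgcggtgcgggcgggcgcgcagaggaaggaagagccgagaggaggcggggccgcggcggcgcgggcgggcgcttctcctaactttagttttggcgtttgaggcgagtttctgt
WWC1, chr5:168291395-168291644, plus strand: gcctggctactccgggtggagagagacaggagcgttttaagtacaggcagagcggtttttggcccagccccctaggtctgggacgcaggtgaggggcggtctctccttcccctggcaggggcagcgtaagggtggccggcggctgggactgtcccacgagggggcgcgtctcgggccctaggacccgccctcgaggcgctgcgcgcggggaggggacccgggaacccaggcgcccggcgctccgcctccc
The shortest core of the hypoxia response element, ACGTG, was present in 3 of the 11 windows, 1 each of YAP1, LATS1 and LATS2, and in 21.4% of all windows. In YAP1 and LATS2 it was read on both strands at 1 place, because CACGTG holds it in each direction. The WWC1 window held no ACGTG.

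**Figure D1:**
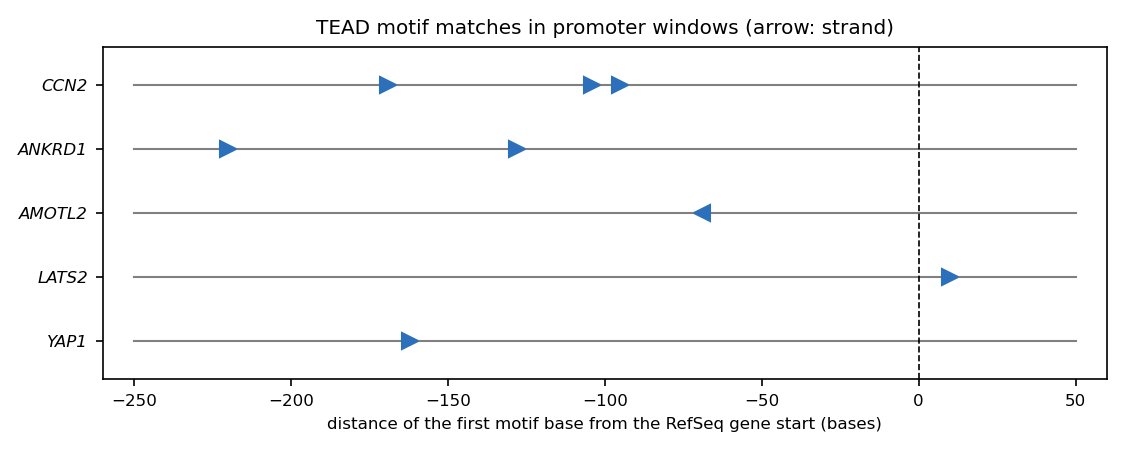
Positions of GGAATG in the RefSeq promoter windows of the 5 members that hold it. The horizontal axis is the distance of the first base of the match from the gene start in bases, and each arrow points along the strand of the match. CCN2 has 3 matches and ANKRD1 has 2, all upstream of the start, and the match of LATS2 lies just after it.

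The deposited counts summed to between 33831569 and 54202819 per library. Levels are given as CPM, a gene's count relative to the size of its library, after scaling by the trimmed mean of M values (TMM). A gene with 0 counts could still lie at up to 3 counts, which is 0.0553 to 0.0887 CPM by library, counting error only. A gene was called where its adjusted p from edgeR's quasi-likelihood test (Benjamini-Hochberg over 19636 genes) was under 0.05. On the leading component of variation within lines, which held 47.1% of that variance, 3 hypoxic libraries lay far from the other 9, namely SKMEL-5 hypoxia 1, A375 hypoxia 1 and A2058 hypoxia 2. Libraries of A375 and SKMEL-5 were close to each other, with log2 CPM correlations of 0.912 to 0.990 against 0.917 to 0.982 within A375, and 7 of these 8 libraries were matched best by the library of the other line with the same condition and number. By this measure these 2 lines were not further apart than the libraries of A375 were from each other, and whether each of the 8 libraries holds the line on its label was not tested here. Every value given for A375 or SKMEL-5, and every difference between A2058 and either of them, rests on those labels. Values of these 2 lines are therefore not counted as separate support for each other. Calls of the members are also given with a line or the 3 distant libraries left out. All 12 libraries expressed SOX10, a defining factor of the melanocyte lineage. TYR and MLANA, further pigment cell markers, had 0 counts in every A375 and SKMEL-5 library. None of 7 fibroblast, 2 keratinocyte or 2 blood cell markers tested was called in the 3-line mean. The 7 fibroblast markers summed to 64.4 to 108 CPM in A2058 hypoxia against 24.7 to 27.0 CPM in A2058 normoxia, to 5.95 to 7.07 CPM in A375 hypoxia against 4.76 to 5.47 CPM in A375 normoxia, and to 10.1 to 10.4 CPM in SKMEL-5 hypoxia against 4.84 to 6.5 CPM in SKMEL-5 normoxia. Blood cell markers summed to at most 3.06 CPM in any library, and the 5 keratinocyte markers to 51.7 to 144 CPM over the hypoxic libraries against 43.3 to 103 CPM over the normoxic ones. Most of that sum was KRT10, a keratin of differentiated epidermis, at 41.8 to 140 CPM over the 12 libraries, with KRT14, a keratin of basal epidermis, at up to 18.9 CPM. DSG3, a keratinocyte desmosome protein, was at 0 in all 12. COL3A1 was at 0 in A375 hypoxia and COL1A2 in SKMEL-5 hypoxia. The part of these markers in the results on CCN1 and CCN2 below was not tested. CA9, a carbonic anhydrase switched on by the hypoxia-inducible factors, was higher in hypoxia by 6.77 ± 1.18 on the log2 scale (3-line mean, SE, edgeR adjusted p = 0.0257). It ranged from 352 to 725 CPM over the 6 hypoxic libraries and from 0.0826 to 19.0 CPM over the 6 normoxic libraries.

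WWC1, the scaffold that brings LATS kinases to their activators, lies at chr5:168291651-168472303 on GRCh38 (plus strand). It was lower in hypoxia than in normoxia in all 3 lines, and no hypoxic library of a line reached the level of a normoxic library of that line. In A2058, WWC1 had 12.4 and 9.0 CPM in hypoxia, against 14.6 and 36.8 CPM in normoxia. In A375 it had 4.81 and 5.48 CPM in hypoxia, against 11.9 and 14.4 CPM in normoxia. In SKMEL-5 it had 3.10 and 2.32 CPM in hypoxia, against 8.71 and 11.6 CPM in normoxia. A2058 hypoxia 1 and A2058 normoxia 1 lay nearest to each other, and A2058 normoxia 2 was the highest of the 12 libraries. These levels rest on 129 to 1338 counts per library. The fitted WWC1 difference was -1.27 ± 0.48 for A2058, -1.36 ± 0.48 for A375 and -1.91 ± 0.49 for SKMEL-5 (log2, hypoxia minus normoxia, SE), and their mean was -1.51 ± 0.28, a level 2.85-fold lower in hypoxia. The value for A2058 depended on 1 library, since without A2058 normoxia 2 it was -0.44 ± 0.50. Leaving out 1 library moved it from -1.80 to -0.44, against -1.49 to -1.22 for A375 and -2.13 to -1.68 for SKMEL-5. Of all tested genes, 2.79% lay lower in hypoxia without overlap in all 3 lines. The groups ran, by mean WWC1, from SKMEL-5 hypoxia (2.71 ± 0.55 CPM) through A375 hypoxia (5.14 ± 0.47), SKMEL-5 normoxia (10.2 ± 2.1), A2058 hypoxia (10.7 ± 2.4) and A375 normoxia (13.2 ± 1.7) to A2058 normoxia (25.7 ± 15.7, SD, n = 2 each). From SKMEL-5 normoxia upward, neighbouring groups overlapped or, for A375 and A2058 normoxia, differed by less than the SD of A2058 normoxia. The A375 hypoxia libraries overlapped neither those of SKMEL-5 hypoxia nor those of SKMEL-5 normoxia.

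WWC1 was also the least abundant of the 3 WWC genes, which encode related scaffolds. Per kilobase of exon, its level was 0.183 to 0.589 times that of WWC2 in A2058 libraries, 0.0937 to 0.239 times in A375 and 0.0441 to 0.335 times in SKMEL-5. Against WWC3 it was 0.156 to 0.414 times as abundant in A2058, 0.140 to 0.269 times in A375 and 0.0395 to 0.240 times in SKMEL-5.

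Because WWC1 was chosen for its hypoxia difference, its values are a description. In the 3-line mean WWC1 was the 1 member called lower and 0 members were called higher, where 0.143% of the 19636 tested genes were called lower and 0.978% were called higher. No member was called within a single line, where the share of all genes called was 0.0102% for A2058, 0.0% for A375 and 0.0% for SKMEL-5. By unadjusted p under 0.05, 1 member would have been counted in each line, which was WWC1, and DESeq2 called WWC1 in SKMEL-5. The call of WWC1 in the 3-line mean was lost without any 1 of 9 libraries, which were A2058 hypoxia 2, A2058 normoxia 2, A375 hypoxia 1, both A375 normoxia libraries and all 4 SKMEL-5 libraries. The WWC1 difference itself ran from -1.68 to -1.24 over the 12 fits that left out 1 library. It was -1.51 ± 0.35 with these 3 distant hypoxic libraries left out and -1.34 ± 0.37 without SKMEL-5, and the call was lost in both.

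**Figure D2:**
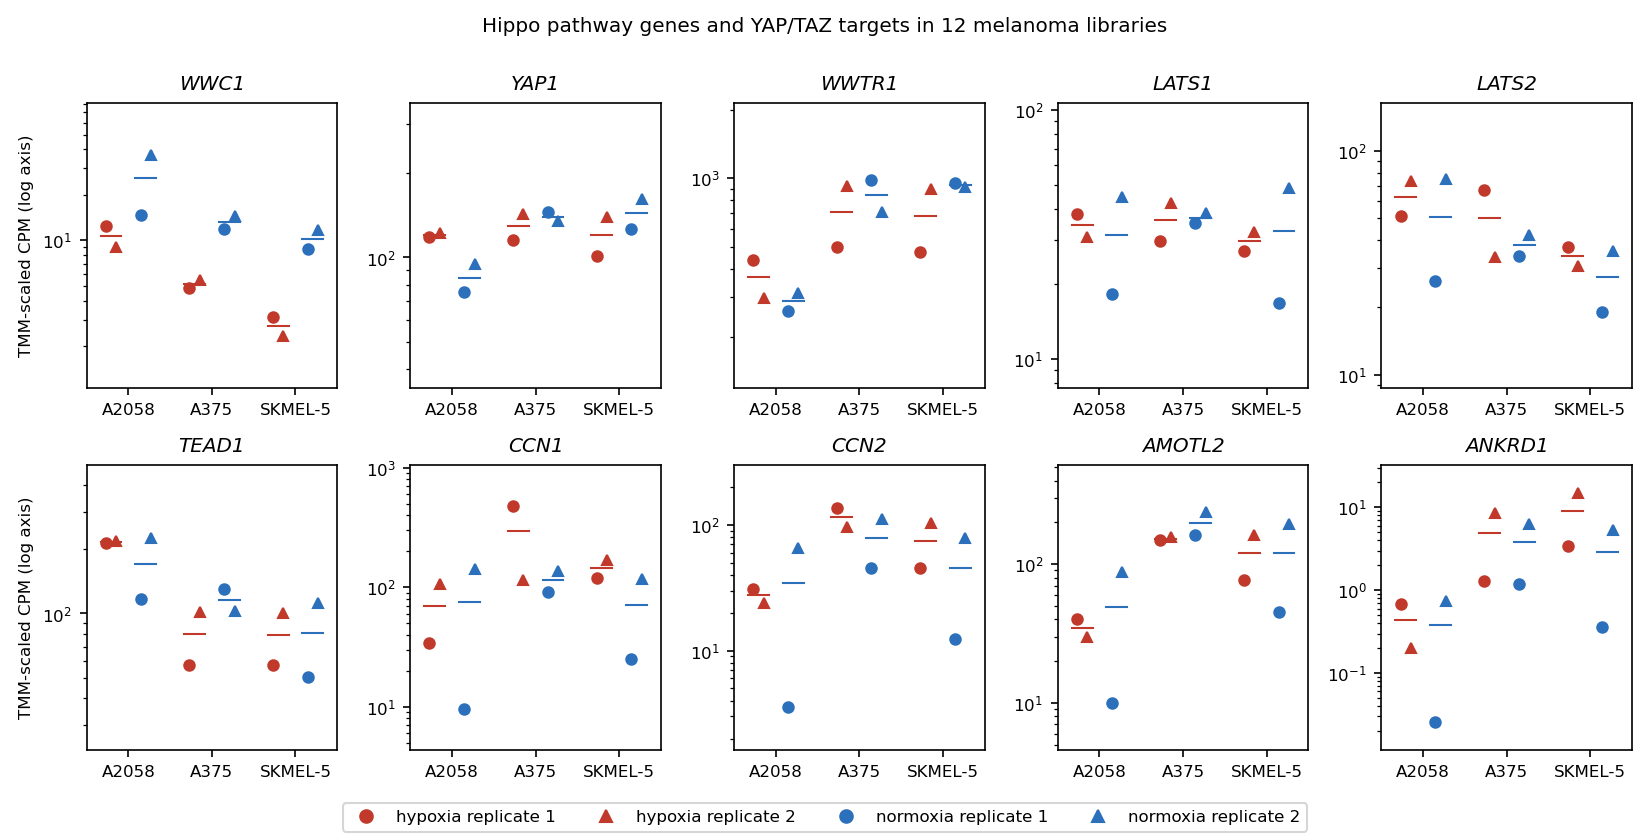
TMM-scaled CPM (log axis) of the 10 members in each library, by line, with hypoxia in red to the left of normoxia in blue. Circles and triangles are replicates 1 and 2 and the short lines are group means. WWC1 is the 1 member whose hypoxic points lie below the normoxic points in all 3 lines, and for CCN1, CCN2, AMOTL2 and ANKRD1 the blue circle lies below the blue triangle in every line.

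The mean differences of the co-activators, kinases and TEAD1 lay between -0.11 and 0.34 on the log2 scale, and none was called. YAP1 (chr11:102110461-102233423) had 118 and 123 CPM in A2058 hypoxia, against 75.0 and 94.4 CPM in A2058 normoxia. It had 116 and 143 CPM in A375 hypoxia, against 145 and 135 CPM in A375 normoxia, and 102 and 140 CPM in SKMEL-5 hypoxia, against 127 and 162 CPM in SKMEL-5 normoxia. YAP1 thus lay above normoxia without overlap in A2058, while its values overlapped in the other lines, and its mean difference was 0.04 ± 0.18. Lack of overlap within 1 line sets 2 libraries against 2. Here and below, the share of all tested genes that show it in a single line was not counted. WWTR1 (chr3:149517235-149736714), which encodes TAZ, had 435 and 296 CPM in A2058 hypoxia, against 261 and 313 CPM in A2058 normoxia. It had 497 and 926 CPM in A375 hypoxia, against 979 and 710 CPM in A375 normoxia, and 474 and 897 CPM in SKMEL-5 hypoxia, against 954 and 912 CPM in SKMEL-5 normoxia. WWTR1 lay below normoxia without overlap in SKMEL-5, and its values overlapped in the other lines. Both low hypoxic values of WWTR1 came from the distant libraries A375 hypoxia 1 and SKMEL-5 hypoxia 1, and the mean difference was -0.11 ± 0.26. LATS1 (chr6:149658153-149718256) and LATS2 (chr13:20973032-21061547), the kinases that phosphorylate YAP and TAZ, overlapped between conditions in every line. LATS1 ranged from 27.1 to 42.4 CPM over the hypoxic libraries and from 16.7 to 48.6 CPM over the normoxic ones, with a mean difference of -0.01 ± 0.30. LATS2 ranged from 30.6 to 73.5 CPM in hypoxia and from 19.1 to 74.6 CPM in normoxia, with a mean difference of 0.34 ± 0.30. Per kilobase of exon, LATS2 was 2.08 to 3.70 times as abundant as LATS1 in A2058 libraries, 1.23 to 3.47 times in A375 and 1.14 to 2.13 times in SKMEL-5. TEAD1 (chr11:12674591-12944483), which carries YAP and TAZ to DNA, had 57.6 and 102 CPM in A375 hypoxia, against 130 and 103 CPM in A375 normoxia. In A2058 TEAD1 had 214 and 218 CPM in hypoxia, against 116 and 226 CPM in normoxia, and in SKMEL-5 it had 57.2 and 101 CPM in hypoxia, against 50.2 and 112 CPM in normoxia. Its values overlapped in both of these lines but not in A375, where TEAD1 was lower in hypoxia. The mean difference of TEAD1 was -0.08 ± 0.28.

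The 4 canonical targets did not share a direction with oxygen. CCN1 (chr1:85580761-85583962) encodes a secreted matrix protein, also called CYR61. It had 34.0 and 106 CPM in A2058 hypoxia, against 9.49 and 141 CPM in A2058 normoxia, and 480 and 116 CPM in A375 hypoxia, against 91.5 and 137 CPM in A375 normoxia. In SKMEL-5 it had 120 and 169 CPM in hypoxia, against 24.9 and 117 CPM in normoxia, the 1 line without overlap. The highest CCN1 level of all, 480 CPM, was that of the distant library A375 hypoxia 1. CCN2 (chr6:131948176-131951373) encodes the related matrix protein CTGF. It had 31.0 and 23.9 CPM in A2058 hypoxia, against 3.54 and 64.8 CPM in A2058 normoxia. It had 136 and 95.5 CPM in A375 hypoxia, against 45.3 and 111 CPM in A375 normoxia, and 45.3 and 104 CPM in SKMEL-5 hypoxia, against 12.4 and 78.0 CPM in SKMEL-5 normoxia. CCN2 overlapped between conditions in every line. AMOTL2 (chr3:134355874-134375479) encodes an angiomotin-like scaffold that binds YAP and is itself a YAP target. It had 40.0 and 29.7 CPM in A2058 hypoxia, against 10 and 87.5 CPM in A2058 normoxia. It had 149 and 156 CPM in A375 hypoxia, against 161 and 236 CPM in A375 normoxia, and 76.9 and 163 CPM in SKMEL-5 hypoxia, against 45.6 and 194 CPM in SKMEL-5 normoxia. Both hypoxic A375 libraries lay below the normoxic ones for AMOTL2, and the other lines overlapped. ANKRD1 (chr10:90912096-90921276) encodes a nuclear ankyrin repeat protein best known in heart muscle. It had 0.67 and 0.20 CPM in A2058 hypoxia, against 0.03 and 0.74 CPM in A2058 normoxia. It had 1.29 and 8.43 CPM in A375 hypoxia, against 1.18 and 6.37 CPM in A375 normoxia, and 3.41 and 14.8 CPM in SKMEL-5 hypoxia, against 0.36 and 5.38 CPM in SKMEL-5 normoxia. ANKRD1 overlapped between conditions in every line. The lowest ANKRD1 value, in A2058 normoxia 1, was a single count.

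The fitted 3-line mean differences of these targets were 0.77 ± 0.62 for CCN1, 0.32 ± 0.61 for CCN2, -0.29 ± 0.49 for AMOTL2 and 0.75 ± 0.85 for ANKRD1 (log2, hypoxia minus normoxia, SE). Their standard errors were larger than those of the co-activators and kinases, which ran from 0.18 for YAP1 to 0.30 for LATS1 and LATS2. The median difference over the 10 members was 0.02, the same as the median over all tested genes. A single library could move these values by more than the standard error. Over the fits that left out 1 library, the mean difference ran from 0.31 to 1.76 for CCN1, from 0.02 to 1.41 for CCN2, from -0.57 to 0.47 for AMOTL2 and from 0.11 to 2.0 for ANKRD1. The highest value of each of the 4 came without A2058 normoxia 2. The hypoxia difference was also compared between the 3 lines, which the choice of members did not use. edgeR called 0 members for a difference between lines, 0 members had an unadjusted p under 0.05, and 0 were called by DESeq2 or limma-voom. Of all tested genes 0.0% were called in that test by edgeR.

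**Figure D3:**
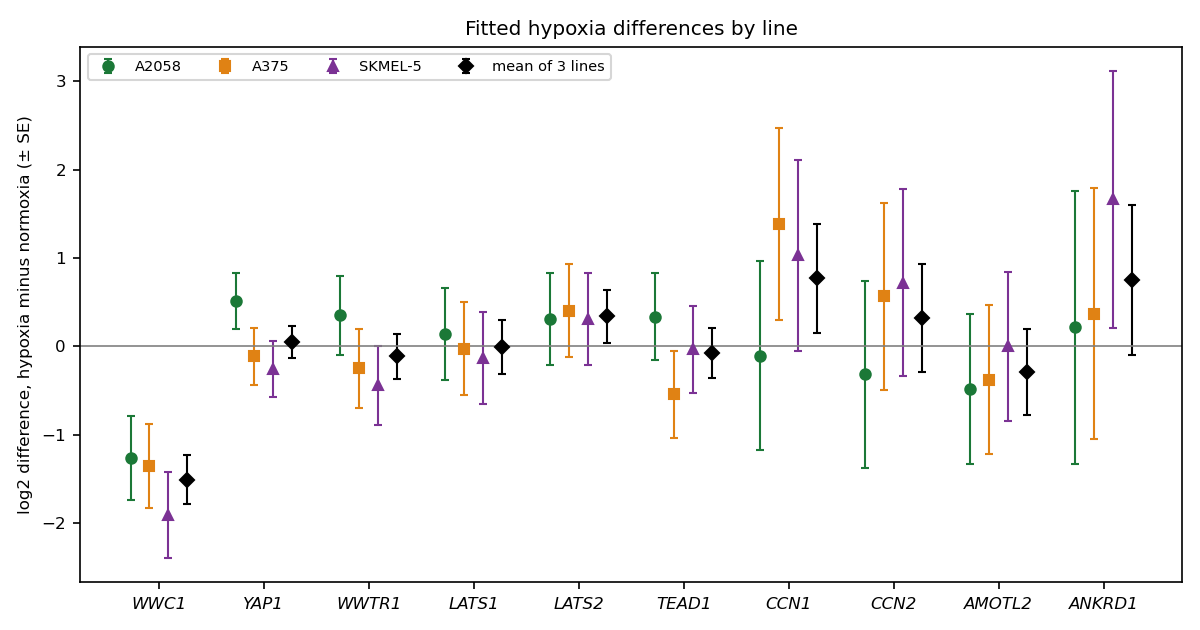
Fitted log2 difference, hypoxia minus normoxia, with its standard error, for each member in A2058, A375 and SKMEL-5 and for the mean of the 3 lines. WWC1 lies at -1.27, -1.36 and -1.91 in the 3 lines, and the bars of the 4 canonical targets are the widest.

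The targets also differed between the 2 normoxic libraries of a line. CCN1, CCN2, AMOTL2, ANKRD1 and LATS2, itself a known YAP target, were lower in normoxia 1 than in normoxia 2 in 15 of 15 pairs of gene and line. These pairs are not separate support. Normoxic replicate differences correlated between lines (0.26 to 0.58), and the levels of these genes ran together over the libraries. In the 14 pairs with over 3 counts in normoxia 1, the level in normoxia 2 was 1.24-fold to 18.3-fold higher. ANKRD1 in A2058 had 1 count in normoxia 1 against 27 in normoxia 2, a ratio of 29 with a 95% exact interval of 4.78 to 1187 for counting error. The spread was widest in A2058, where CCN2 stood at 3.54 CPM in normoxia 1 against 64.8 CPM in normoxia 2, and narrowest in A375, where LATS2 stood at 33.8 against 41.9 CPM. In all, 7 of the 10 members lay lower in normoxia 1 than in normoxia 2 in every line, where 23.8% of tested genes did, and 5288 tested genes lay higher in normoxia 1 in every line. YAP1, WWTR1 and TEAD1 were the 3 members that did not keep 1 direction. Among 17 other YAP/TAZ targets, 12 lay lower in normoxia 1 in every line and 2 lay higher there in every line, which were IGFBP3 and GADD45A, a stress-induced growth arrest gene. GADD45A had 22.9 CPM in normoxia 1 against 15.9 CPM in normoxia 2 in A2058, 44.6 against 36.4 CPM in A375 and 67.9 against 45.2 CPM in SKMEL-5. The 12 lower ones included the receptor tyrosine kinase AXL and the membrane repair protein MYOF. AXL had 48.1 CPM in normoxia 1 against 321 CPM in normoxia 2 in A2058, 445 against 688 CPM in A375 and 150 against 441 CPM in SKMEL-5. MYOF, in the same order, had 5.21 against 272 CPM in A2058, 352 against 573 CPM in A375 and 147 against 575 CPM in SKMEL-5. This pattern, and AXL and MYOF as its examples, were picked after the values had been seen, and replicate numbers carry no stated meaning in the labels.

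Other measures moved with it. Transcripts of the mitochondrial genome took 20.1% of counts in A2058 normoxia 1 against 7.64% in normoxia 2, 4.13% against 2.97% in A375, and 6.31% against 2.79% in SKMEL-5. Longer genes tended to be lower in normoxia 1, with a rank correlation between exon length and the normoxia 1 minus normoxia 2 difference of -0.33 for A2058, -0.14 for A375 and -0.35 for SKMEL-5 (across 19346 genes, which are not independent replicates). CA9 was higher in normoxia 1 in all 3 lines, at 19.0 against 0.0826 CPM in A2058, 4.91 against 0.805 CPM in A375 and 9.81 against 0.223 CPM in SKMEL-5. The part of these measures in the difference between the normoxic libraries was not tested. Without the 3 normoxia 1 libraries, which was tried after the data were seen, WWC1 differed by -1.78 ± 0.31 between hypoxia and normoxia but was no longer called.

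**Figure D4:**
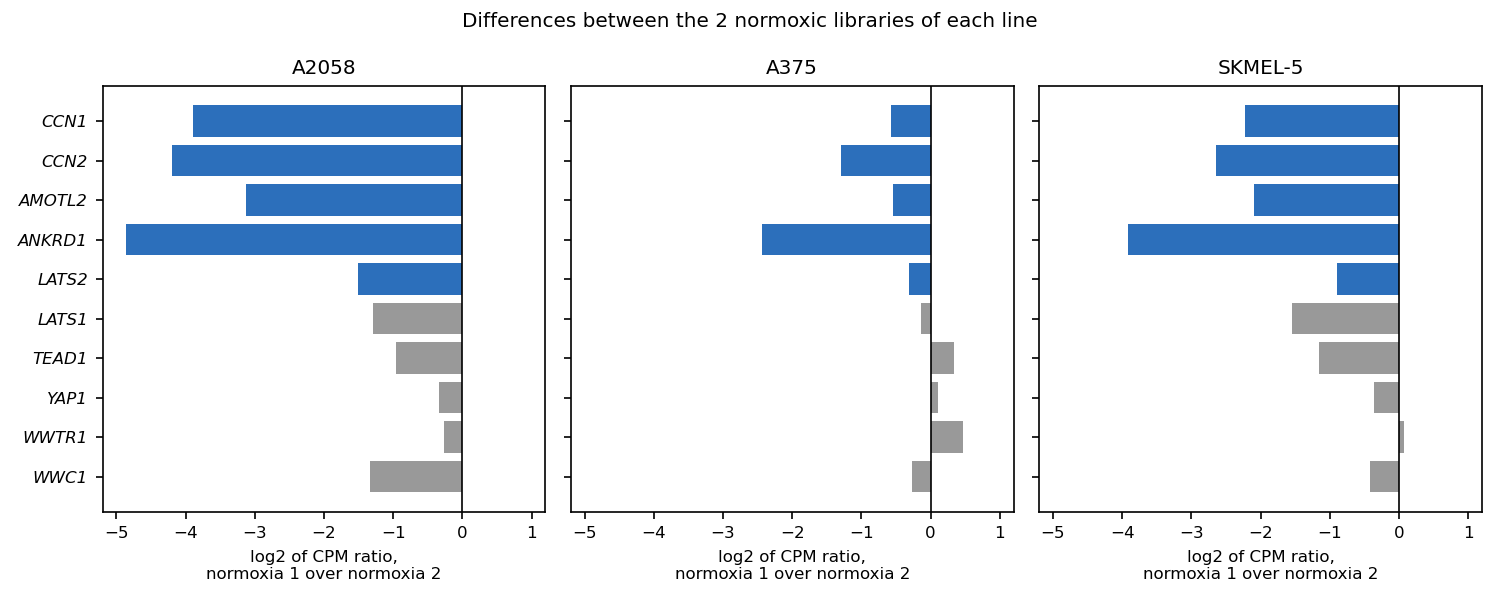
Log2 ratio of TMM-scaled CPM in normoxia 1 over normoxia 2 for each member and line. Blue bars are CCN1, CCN2, AMOTL2, ANKRD1 and LATS2 and grey bars are the other 5 members, and all 15 blue bars point to lower values in normoxia 1. The ANKRD1 bar of A2058 rests on 1 count in normoxia 1.

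The lines were compared next, as means over both oxygen conditions, a contrast that the choice of members did not use. Between A2058 and A375, 4 of the 10 members were called, 1 higher and 3 lower in A2058, where 27.6% of all tested genes were called. Between A2058 and SKMEL-5, 4 members were called, 2 higher and 2 lower in A2058, where 26.8% of all tested genes were called. Both comparisons use the same 4 A2058 libraries, and A375 and SKMEL-5 are close to each other, so they are not separate evidence. With 10 members, counts of 4 were not tested against these backgrounds. With the 3 distant hypoxic libraries left out, the calls of WWTR1 in both comparisons and of WWC1 against SKMEL-5 stayed and the other calls were lost (adjusted p 0.0947 for TEAD1 to 0.147 for AMOTL2). Without the 3 normoxia 1 libraries, WWC1 against SKMEL-5 and AMOTL2 against A375 stayed and the other calls were lost (adjusted p 0.0836 for ANKRD1 to 0.194 for WWTR1). Between A375 and SKMEL-5, edgeR called 0 members and 0 had an unadjusted p under 0.05, DESeq2 and limma-voom also called 0, and 0.0102% of all tested genes were called by edgeR. WWC1 and LATS2 were higher in A375 than in SKMEL-5 in 4 of 4 pairs of libraries with the same condition and number. ANKRD1 was higher in A375 in 2 of 4 pairs and each other member in 3 of 4. How many of all tested genes kept 1 direction in 4 of 4 pairs was not counted. With these pairs as a block, which was tried after the data were seen, edgeR again called 0 members and 0 had an unadjusted p under 0.05. The WWC1 difference was then 0.65 ± 0.31 and that of LATS2 0.51 ± 0.30, each with an adjusted p of 1, and over all tested genes the count of calls was 19 with the block and 2 without it.

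WWTR1, the gene of TAZ, was lower in A2058 than in either other line, by -1.26 ± 0.32 against A375 (adjusted p = 0.0133) and by -1.30 ± 0.32 against SKMEL-5 (adjusted p = 0.0113, log2, SE, edgeR). All 4 A2058 libraries, at 261 to 435 CPM, lay below all A375 libraries, at 497 to 979 CPM, and all SKMEL-5 libraries, at 474 to 954 CPM. YAP1 differed less, by -0.41 ± 0.23 against A375 (adjusted p = 0.205) and by -0.39 ± 0.23 against SKMEL-5 (adjusted p = 0.239). Per kilobase of exon, WWTR1 was 1.81 to 2.75 times as abundant as YAP1 in A2058 libraries, 3.21 to 5.06 times in A375 and 3.50 to 5.63 times in SKMEL-5, so the range of A2058 did not overlap those of the other lines. The WWTR1 call against A375 was lost without A2058 hypoxia 2 (-1.12, adjusted p = 0.0549) and without A375 normoxia 1 (-1.14, adjusted p = 0.0531).

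The same comparison showed WWC1 and TEAD1 at higher levels in A2058. WWC1 was 3.16-fold higher in A2058 than in SKMEL-5 (log2 1.66 ± 0.34, adjusted p = 0.00422) and was called under all 20 alternatives tried for that contrast, with adjusted p from 1.94e-05 to 0.0382. Against A375 WWC1 was 2.02-fold higher in A2058 (log2 1.01 ± 0.34, adjusted p = 0.0444), a call kept in 4 of 20 alternatives and lost when any 1 library was left out other than A2058 normoxia 1. Without A2058 normoxia 2, the highest WWC1 library, that difference was 0.60 (adjusted p = 0.216). TEAD1 was 2.41-fold higher in A2058 than in SKMEL-5 (log2 1.27 ± 0.35, adjusted p = 0.0211) and 2.0-fold higher than in A375, which missed the threshold (log2 1.00 ± 0.35, adjusted p = 0.0555). The call of TEAD1 against SKMEL-5 was lost without A2058 normoxia 2 (adjusted p = 0.0836), SKMEL-5 hypoxia 1 (adjusted p = 0.0697) or SKMEL-5 normoxia 1 (adjusted p = 0.0763).

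Of the 4 canonical targets, AMOTL2 was called lower in A2058 than in A375, and ANKRD1 lower than in either line. AMOTL2 had 10 to 87.5 CPM over the A2058 libraries, against 149 to 236 CPM in A375 without overlap, a difference of -2.08 ± 0.62 (adjusted p = 0.0281). Against SKMEL-5, at 45.6 to 194 CPM, AMOTL2 differed by -1.54 ± 0.61 (adjusted p = 0.0862). Without A2058 normoxia 2, the highest A2058 library for AMOTL2, the differences were -3.23 against A375 and -2.69 against SKMEL-5 (adjusted p = 0.00285 and 0.00646). Without SKMEL-5 normoxia 2 the difference from SKMEL-5 was -0.84 (adjusted p = 0.363). The AMOTL2 call against A375 was lost without A2058 hypoxia 1 (adjusted p = 0.068), A2058 hypoxia 2 (adjusted p = 0.102) or A375 normoxia 2 (adjusted p = 0.0762). ANKRD1 had 0.03 to 0.74 CPM in A2058, from 1 to 32 counts, against 1.18 to 8.43 CPM in A375 and 0.36 to 14.8 CPM in SKMEL-5. Its differences were -3.37 ± 1.12 against A375 (adjusted p = 0.0454) and -3.63 ± 1.14 against SKMEL-5 (adjusted p = 0.0356), and each call was kept in 12 of 20 alternatives. Without 1 of A2058 hypoxia 1, A2058 hypoxia 2, A2058 normoxia 1, A375 hypoxia 2 or A375 normoxia 2, the ANKRD1 call against A375 was lost, with adjusted p up to 0.156. Against SKMEL-5 it was lost without the same 3 A2058 libraries, SKMEL-5 hypoxia 2 or SKMEL-5 normoxia 2, with adjusted p up to 0.200. The size of the ANKRD1 difference also moved, from -5.26 without A2058 normoxia 2 to -2.42 without A375 hypoxia 2 and -2.54 without A375 normoxia 2 in the comparison with A375. Against SKMEL-5 it was -5.51 without A2058 normoxia 2, -2.92 without SKMEL-5 hypoxia 2 and -2.13 without SKMEL-5 normoxia 2. CCN1 and CCN2 were not called, at -1.35 ± 0.77 and -1.64 ± 0.77 against A375 and at -0.48 ± 0.76 and -0.92 ± 0.75 against SKMEL-5. LATS1 and LATS2 were not called either, and LATS2 differed by 0.88 ± 0.37 between A2058 and SKMEL-5 (adjusted p = 0.106).

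**Figure D5:**
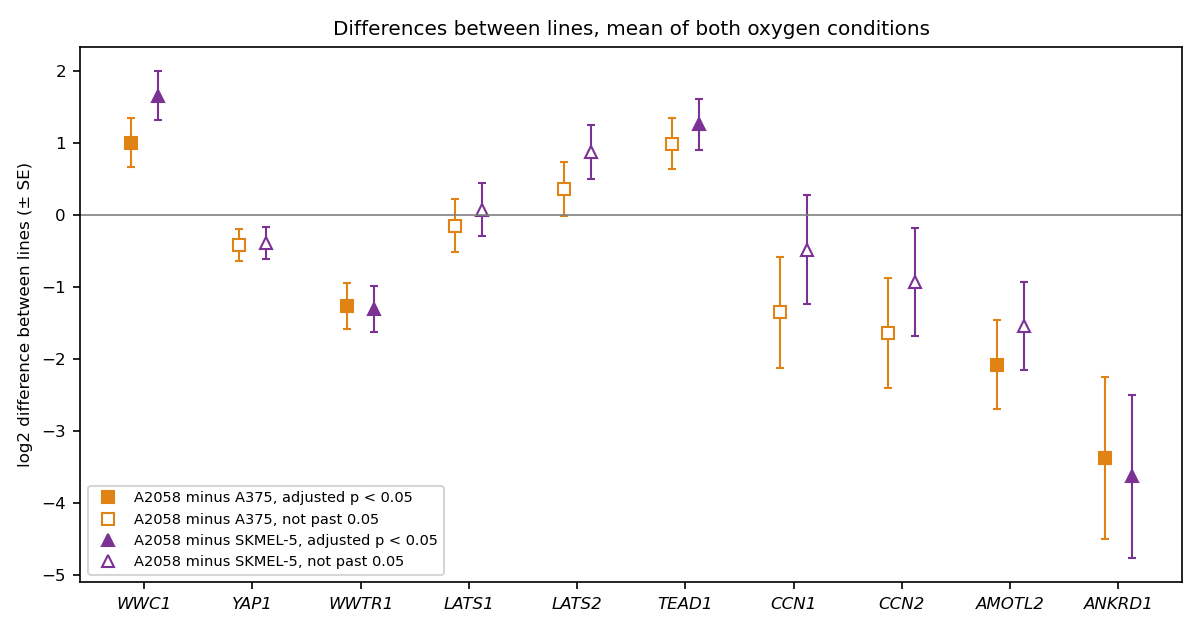
Log2 difference between lines, mean of both oxygen conditions, with its standard error, for A2058 minus A375 (orange squares) and A2058 minus SKMEL-5 (purple triangles). Filled symbols have an adjusted p under 0.05. WWC1 and TEAD1 lie above 0, and WWTR1, AMOTL2 and ANKRD1 lie below 0.

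Another 60 genes of the pathway were listed by role, and 59 of them were tested. In the 3-line mean 1 of the 59 was called higher in hypoxia, where 0.978% of all tested genes were, and 0 were called lower, where 0.143% were. The called gene was IGFBP3, a secreted binding protein for insulin-like growth factors that is listed among YAP targets. IGFBP3 had 624 and 638 CPM in A2058 hypoxia, against 81.4 and 55.8 CPM in A2058 normoxia. It had 474 and 559 CPM in A375 hypoxia, against 90.8 and 62.9 CPM in A375 normoxia, and 171 and 466 CPM in SKMEL-5 hypoxia, against 107 and 54.3 CPM in SKMEL-5 normoxia. The groups did not overlap in any line, and IGFBP3 was 6.25-fold higher in hypoxia (log2 2.64 ± 0.31, adjusted p = 0.00541). It stayed past the threshold in 21 of 22 alternatives, and without the 3 normoxia 1 libraries its adjusted p was 0.119.

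Of the 22 upstream regulators and scaffolds, 0 were called, 4 had an unadjusted p under 0.05, and the median difference was -0.01, against 0.02 over all tested genes. Of all 19636 tested genes 3723 had an unadjusted p under 0.05 in that contrast, the background for this count in each list. AMOT, the angiomotin scaffold related to AMOTL2, had the smallest p of that list at 1.23 ± 0.39 (adjusted p = 0.147). It had 85.5 and 264 CPM in A2058 hypoxia, against 20.6 and 53.1 CPM in A2058 normoxia. In the other lines AMOT ranged from 74.3 to 79.2 CPM over the 4 hypoxic libraries, against 17.1 to 72.3 CPM over the 4 normoxic ones, so the groups did not overlap. The highest of these normoxic values was that of SKMEL-5 normoxia 2. Without the 3 normoxia 1 libraries the AMOT difference was 0.78 in the 3-line mean and 0.10 in SKMEL-5. RASSF1, a scaffold that binds the MST kinases, followed at 1.04 ± 0.37 (adjusted p = 0.181). Its high values lay in the 3 distant hypoxic libraries, at 91.5 CPM in A2058 hypoxia 2, 57.2 CPM in A375 hypoxia 1 and 35.1 CPM in SKMEL-5 hypoxia 1. The other 3 hypoxic libraries had 15.2 to 36.2 CPM, against 9.82 to 36.8 CPM over the 6 normoxic ones. Without the 3 distant libraries the RASSF1 difference was 0.09 ± 0.24 (adjusted p = 0.958). DESeq2 called AMOT, and also CCDC80 of the target list. Over all 19636 tested genes DESeq2 called 1543 in the 3-line mean, against 220 by edgeR.

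Among the 7 core kinases and partners 0 were called, 1 had an unadjusted p under 0.05 and the median was 0.06. STK38, a kinase related to LATS, differed by -0.67 ± 0.31 (adjusted p = 0.263) and MOB1A, the co-activator of LATS, by -0.18 ± 0.25 (adjusted p = 0.726). Of 6 TEAD factors and VGLL cofactors tested, 0 were called, 1 had an unadjusted p under 0.05, and the median was 0.17. VGLL4, which competes with YAP for TEAD, differed by 0.53 ± 0.21 (adjusted p = 0.218) and VGLL3 by 0.66 ± 0.67 (adjusted p = 0.613). Of 8 ubiquitin ligases and casein kinases 0 were called, 2 had an unadjusted p under 0.05 and the median was 0.22. SIAH2 and SIAH1, ubiquitin ligases, differed by 0.61 ± 0.21 (adjusted p = 0.168) and 0.58 ± 0.26 (adjusted p = 0.251). The 17 other targets had a median of 0.27, and 3 of them had an unadjusted p under 0.05.

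Between lines, 14 of the 59 genes were called in A2058 against A375 and 14 against SKMEL-5, and 0 between A375 and SKMEL-5. Of all tested genes 27.6%, 26.8% and 0.0102% were called in these comparisons, and the count of 14 was not tested against them. The calls in this paragraph are from the main analysis only, and how they fare with libraries left out is not given. Higher in A2058 in both comparisons were TAOK3, a kinase upstream of MST, the giant cadherins FAT4 and DCHS1, WTIP of the Ajuba family, and the targets ASAP1 and ARHGEF17. FAT4 was 3.71-fold higher than in A375 (log2 1.89 ± 0.52, adjusted p = 0.0189) and DCHS1, its ligand, 4.64-fold higher (log2 2.21 ± 0.37, adjusted p = 0.00115). Lower in A2058 in both were VGLL2, VGLL3, the ubiquitin ligase ITCH, and the targets GADD45A, DOCK5 and NUAK2. VGLL2 was near the floor throughout, at 0 in every A2058 library and at 0.0902 to 0.88 CPM in the libraries of A375 and SKMEL-5. VGLL3, a TEAD cofactor, had 0 to 0.0421 CPM in A2058, under the limit that a count of 0 allows, against 1.29 to 3.75 CPM in A375 and 1.14 to 4.80 CPM in SKMEL-5. TEAD4 was lower in A2058 than in A375 (log2 -1.19 ± 0.40, adjusted p = 0.046) and missed the threshold against SKMEL-5 (log2 -0.87 ± 0.40, adjusted p = 0.133). Per kilobase of exon, TEAD1 was 0.999 to 1.97 times as abundant as TEAD4 in A2058 libraries, 0.142 to 0.660 times in A375 and 0.193 to 0.523 times in SKMEL-5.

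Levels of the members were set against those of 9506 protein-coding genes of at least 10 CPM over the 12 libraries, as Pearson correlations of log2 CPM. These are descriptions over libraries that share lines and conditions. The genes whose levels ran most like WWC1 were EIF2B5 (r = 0.946), URGCP, TRAF2, LRRK1 and NUFIP1 (0.892 to 0.893), and those that ran most against it were AP3S1 (-0.934), TMSB10 and ATG12 (-0.909 each). CCN2 ran most like ABL2 (0.956), PRRC2C (0.950), IRS1, TRIM44 (0.944 each) and AXL (0.940), and most against GSTK1 (-0.914), MRPS21 and PRAME (-0.894 each). Among the members, CCN2 ran with AMOTL2 (0.921), CCN1 (0.913) and ANKRD1 (0.845), and its correlation with WWC1 was -0.276. WWC1 had its highest correlation among the members with TEAD1 (0.595) and its lowest with ANKRD1 (-0.483). These values carry the differences between lines. With each line centred on its own mean, WWC1 had its highest correlation among the members with WWTR1 (0.318, against -0.363 uncentred) and its lowest with CCN1 (-0.209), while TEAD1 stood at 0.237 and ANKRD1 at -0.134. Centred likewise, CCN2 stood at 0.92 with AMOTL2, 0.88 with CCN1, 0.84 with LATS1, 0.83 with LATS2 and 0.83 with ANKRD1. With TEAD1 it stood at 0.57. The uncentred values of CCN2 were 0.75 with LATS1, 0.40 with LATS2 and -0.08 with TEAD1.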

How the data were processed

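RNA-seq of 12 libraries was analysed. RNA came from RNeasy extractions and libraries from a NuGen mRNA kit, per the labels' protocols. STAR 2.5.0a, Trim Galore 0.6.1, bcl2fastq 2.20 and the GRCh38 build are listed in the submitters' processing notes. Which tool counted the reads, on which strand and with which annotation is not given in the sources used here, and reads of overlapping or antisense genes may therefore be mixed. The authors deposited raw counts, not normalized, in 1 table whose columns carry the sample titles. Gene positions and exon lengths came from GENCODE 29, and promoter windows from RefSeq.

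Counts were fitted in R 4.3.3 with edgeR 4.0.16 (quasi-likelihood, 1 mean per group, all 12 libraries, filterByExpr with a minimum count of 10 and minimum total of 15, TMM). The fit had 6 residual and 5.02 prior degrees of freedom, with a biological coefficient of variation of 0.453 in common. Every adjusted p is edgeR's unless another tool is named, and p-values measure the spread between the 2 libraries of a group. Standard errors are the absolute log2 difference divided by the root of F. The procedure was also run on simulated counts with known changes, drawn for independent libraries without differences between lines. Those counts lacked the distant libraries and shared replicate differences seen here, so they cannot show how the fit handles them. Alternatives were DESeq2 1.42.0 (its size factors, and its own test, with a likelihood ratio test for differences between lines), limma-voom (limma 3.58.1), other filters on low counts, a replicate block, and leaving out libraries or lines. The main comparison used no replicate block. Between A375 and SKMEL-5 the differences between same-numbered replicates correlated (0.80 in hypoxia, 0.58 in normoxia), so those libraries were also fitted as pairs. With A2058 they did so in normoxia (0.26 and 0.47) but not in hypoxia (-0.47 and -0.41). No pair of replicates agreed within sampling noise.

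The members, the lists and their tests were chosen with earlier results of these data known. All 10 members and CA9 were named whatever their values. From each pathway list the up to 3 called genes per direction in the 3-line mean, or where none was called the 2 with the smallest p, were named, with the 5 most and 3 least correlated genes of WWC1 and CCN2. AXL and MYOF in the normoxic comparison and the genes named in the line comparison were chosen after their values were seen, and so were the alternatives without the normoxia 1 libraries and with A375 and SKMEL-5 libraries as pairs.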

Additional observations from a re-analysis of the deposited data

How the results depend on the processing

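Depth limited ANKRD1 in A2058, which had 1 to 32 counts per library. The WWC1 difference between hypoxia and normoxia was negative in all 22 alternatives, from -1.78 to -1.24, and past the threshold in 7. The number of members called in the 3-line mean, 1 in the main analysis, was 0 with limma-voom, with the replicate block, without SKMEL-5, without A375, without the 3 distant hypoxic libraries and without the 3 normoxia 1 libraries. It was 0 to 1 when 1 library was left out. Calls over all genes in the 3-line mean fell as well, from 220 in the main analysis to 178 with limma-voom and 91 with the replicate block. They fell to 5 of 18871 tested without SKMEL-5 and to 28 of 19037 without A375. A lost call of WWC1 in these fits is therefore not particular to that gene. Within single lines DESeq2 called 1 member. Of the other pathway genes, 1 in the main analysis, DESeq2 called 3, no filter on low counts gave 4, and leaving out the 3 normoxia 1 libraries gave 0, with 1 to 2 when 1 library was left out. Over all genes, A2058 against A375 gave 5418 calls in the main analysis and 5439 with limma-voom, each of 19636 tested. Without SKMEL-5 that comparison gave 4804 calls of 18871. A2058 against SKMEL-5 gave 5260 calls of 19636 tested in the main analysis. With no filter on low counts it gave 6257 of 37389, a smaller share, and without A375 it gave 5058 of 19037. Against A375, 4 members differed in A2058 in the main analysis. The count was 2 with limma-voom, 1 without the 3 distant hypoxic libraries, 1 without the normoxia 1 libraries, and 0 to 5 when 1 library was left out. Against SKMEL-5 the count of 4 was 7 with no filter on low counts, 2 without the 3 distant hypoxic libraries, 1 without the normoxia 1 libraries, and 3 to 5 when 1 library was left out. Without the normoxia 1 libraries the LATS1 difference between A2058 and A375 was 0.08, the opposite sign. Leaving out 1 library moved it from -0.55 to 0.12, LATS1 against SKMEL-5 from -0.32 to 0.56, LATS2 against A375 from -0.11 to 0.67, CCN1 against SKMEL-5 from -1.98 to 0.27 and CCN2 against SKMEL-5 from -2.56 to 0.01. None of these 5 differences was called in the main analysis. The counts of members called for a difference of the hypoxia response between lines and between A375 and SKMEL-5 were 0 in every alternative. Over all genes, A375 against SKMEL-5 gave 2 calls in the main analysis and 19 with same-numbered libraries of these 2 lines as a block. Same-numbered libraries of a line share only a number. The differences between replicates in hypoxia correlated with those in normoxia at -0.30 for A2058, 0.23 for A375 and 0.26 for SKMEL-5. The replicate block gave WWC1 a difference of -1.47 ± 0.32. For the cause of each change, fewer libraries leave fewer degrees of freedom, and otherwise the cause was not tested.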
